A study of Mus musculus with 24 samples.

Results

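The ISG15 conjugation system was followed here through 5 mouse genes: Isg15, which encodes the modifier, Uba7 (E1 activating enzyme), Ube2l6 (E2 conjugating enzyme), Herc6 (E3 ligase) and Usp18 (the protease that removes ISG15). They are 5 of the 25229 genes in the count table, and all 5 were among the 12941 genes with enough counts to be tested. The members were selected on their levels across the 4 treatments in these same libraries, so their values are given as a description, without p-values, and support nothing about the treatments beyond these libraries.

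ISG15 is a ubiquitin-like protein that cells make after interferon stimulation. UBA7 activates it, UBE2L6 carries it and HERC6, the main ligase for ISG15 in the mouse, attaches it to lysines of target proteins, often while these are being translated. USP18 takes it off again, and apart from its protease activity it binds STAT2 and the interferon receptor chain IFNAR2 and dampens signaling from the receptor, while free ISG15 can be secreted and act on lymphocytes through the integrin made by Itgal and Itgb2.

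The cells were ID8 P53 KO, a mouse ovarian cancer line from C57BL/6 ovarian surface epithelium in which Trp53 is disrupted, and all 24 libraries share that genotype. For 6 days the cells received DMSO (the vehicle control), 750 nM cisplatin (a platinum drug that crosslinks DNA), 2.5 µM AU-15330 (a PROTAC degrader of the SWI/SNF ATPases SMARCA4 and SMARCA2), or cisplatin and AU-15330 together, with 6 libraries per group. The comparisons address what this degrader does to ovarian cancer cells with and without cisplatin. No group separates loss of SMARCA4 from loss of SMARCA2. The model is a single cell line without immune cells, the degrader acts on protein and so is not read by these counts, and whether the replicates came from separate cultures is not stated, so that p-values measure the spread between libraries, which may be technical.

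The upstream sequence of Isg15, Uba7 and Herc6 is shown first, because Isg15 and Herc6 were highest with AU-15330 alone and Uba7 with cisplatin alone. RefSeq windows of 300 bases (250 before and 50 after the start, GRCm38.p6) matched 4 of the 5 members (Isg15, Uba7, Ube2l6 and Herc6). They were searched on both strands for the core of the interferon-stimulated response element, GAAANNGAAA, for the shorter letters AANNGAAA, which every GAAANNGAAA on either strand also contains, and for the gamma-activated-site letters TTCNNNGAA. The 3 windows lie at chr4:156200769-156201068 on the minus strand (Isg15), chr9:107975317-107975616 on the plus strand (Uba7) and chr6:57580742-57581041 on the plus strand (Herc6), and capitals mark every match to GAAANNGAAA or AANNGAAA on either strand.
Isg15: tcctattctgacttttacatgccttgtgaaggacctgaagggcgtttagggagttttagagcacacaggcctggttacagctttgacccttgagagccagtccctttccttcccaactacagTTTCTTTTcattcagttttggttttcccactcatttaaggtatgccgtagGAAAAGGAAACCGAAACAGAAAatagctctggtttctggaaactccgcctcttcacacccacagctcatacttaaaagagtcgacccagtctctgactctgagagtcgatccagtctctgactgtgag
Uba7: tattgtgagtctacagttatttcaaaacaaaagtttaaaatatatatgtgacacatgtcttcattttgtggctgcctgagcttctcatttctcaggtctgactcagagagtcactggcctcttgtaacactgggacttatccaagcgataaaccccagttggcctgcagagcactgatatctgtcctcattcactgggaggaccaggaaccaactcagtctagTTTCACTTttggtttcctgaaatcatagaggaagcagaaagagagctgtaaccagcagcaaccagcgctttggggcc
Herc6: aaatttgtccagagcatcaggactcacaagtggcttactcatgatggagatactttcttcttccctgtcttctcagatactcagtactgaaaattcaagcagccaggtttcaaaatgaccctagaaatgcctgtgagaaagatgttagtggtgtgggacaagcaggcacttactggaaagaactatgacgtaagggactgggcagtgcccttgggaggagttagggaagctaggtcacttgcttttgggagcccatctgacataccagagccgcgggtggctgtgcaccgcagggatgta

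The Isg15 window held 3 overlapping matches to GAAANNGAAA, which run from 78 to 69, from 72 to 63 and from 66 to 57 bases before the start. It also held a separate match to AANNGAAA on the opposite strand, from 128 to 121 bases before the start. The Uba7 window held 1 match, to AANNGAAA on the opposite strand, from 27 to 20 bases before the RefSeq start. GENCODE starts Uba7 earlier, at 107975505 inside this window, so this match lies within the gene as GENCODE places it. Neither the Herc6 window nor the Ube2l6 window, at chr2:84798578-84798877 on the plus strand, held either set of letters, and TTCNNNGAA was in 0 of the 4 windows. Across all 32851 mouse windows of this length, 3.44% held GAAANNGAAA, 23.9% held AANNGAAA and 8.3% held TTCNNNGAA. These matches describe letters in a window and carry no statement on binding.

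On GRCm38 (the assembly also called mm10), the GENCODE annotation places Isg15 (ENSMUSG00000035692.6) at chr4:156199424-156200818 on the minus strand, Uba7 (ENSMUSG00000032596.14) at chr9:107975505-107984060, Ube2l6 (ENSMUSG00000027078.14) at chr2:84798828-84810335, Herc6 (ENSMUSG00000029798.11) at chr6:57581000-57664632 and Usp18 (ENSMUSG00000030107.10) at chr6:121245906-121270917, the last 4 on the plus strand. Their merged exons span 756, 6692, 1996, 9292 and 2790 bases, in the same order. Other annotated genes overlap exons of 3 members: Gm20661 spans 940 exonic bases of Uba7 and Gm45193 spans 6128 of Herc6 on the same strand, and Gm44148 spans 2281 of Usp18 on the opposite strand. None of these genes has a row in the count table, and how reads from the shared stretches were counted is not given in the sources used here.

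Depth was similar across groups, at 17592588 to 25260009 counts per library, so that 3 counts, the floor used here for counting error only, correspond to 0.120 to 0.186 CPM, a unit that scales counts to a common library size. All CPM values are scaled by TMM (trimmed mean of M values), and scaling on plain totals moved the median log2 fold change of all genes by 0.13 in AU-15330 against DMSO and by at most 0.075 in size in the other comparisons. The 7 epithelial and mesothelial markers passed the filter on low counts, with a summed level of 3512 to 5308 CPM with DMSO, 4174 to 4851 CPM with cisplatin, 1018 to 1150 CPM with AU-15330 and 1222 to 1403 CPM with the combination. Of 8 leukocyte markers only Cd68 was abundant enough to be tested, Ptprc reached at most 5 counts in any library, and Siglech and Ncr1 had 0 counts throughout. In bulk RNA, fewer cells of a type and less RNA per cell cannot be told apart.

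Isg15, the modifier itself, had 33 to 70 counts per library in control cells and was the most abundant member per length in every treated group. Its lowest, median and highest library stood at 1.59, 2.35 and 3.77 CPM with DMSO and at 110, 171 and 196 CPM with cisplatin. The same 3 values were 295, 357 and 422 CPM with AU-15330 and 231, 256 and 287 CPM with the combination. Every cisplatin library was above every DMSO library, every combination library above every cisplatin library, and every AU-15330 library above every combination library.

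On the log2 scale, Isg15 was higher by 5.99 ± 0.19 (SE, n = 6 per group here and below) with cisplatin against DMSO, a 63.5-fold difference. It was higher by 7.16 ± 0.20 with AU-15330 against DMSO, or 143-fold. Adding AU-15330 to cisplatin went with a level 1.61-fold higher (log2 0.69 ± 0.14), whereas adding cisplatin to AU-15330 went with a level 1.40-fold lower (log2 -0.49 ± 0.14). The order DMSO, cisplatin, combination, AU-15330 was shared by 10.1% of the tested genes by their medians, and 29 genes (0.224%), Isg15 included, had that order with no overlap between neighbours.

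Herc6, the ligase that completes the transfer of ISG15, had the same order of group medians as Isg15. Its lowest, median and highest library were at 10.5, 11.8 and 14.1 CPM with DMSO and at 64.3, 77.8 and 87.9 CPM with cisplatin. With AU-15330 they were at 160, 192 and 220 CPM and with the combination at 139, 188 and 196 CPM. The 2 groups that received AU-15330 overlapped each other, and all of their libraries were above all cisplatin libraries, which were in turn above all DMSO libraries.

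Relative to DMSO, Herc6 was 6.33-fold higher with cisplatin (log2 2.66 ± 0.11) and 15.7-fold higher with AU-15330 (log2 3.98 ± 0.11). The combination stood 2.37-fold above cisplatin alone (log2 1.24 ± 0.10) and did not separate from AU-15330 alone (log2 -0.07 ± 0.10). The lowest Herc6 value among the combination libraries belonged to replicate 1, at 139 CPM against 183 to 196 CPM in the other 5.

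Uba7, the E1 enzyme that starts the cascade, was the member with the highest counts in control cells and the smallest fold changes against DMSO. Its lowest, median and highest library stood at 27.1, 32.5 and 37.9 CPM with DMSO and at 81.1, 93.9 and 113 CPM with cisplatin. With AU-15330 the values were 52.9, 55.3 and 63.4 CPM, and with the combination 39.1, 43.2 and 50.2 CPM. Each group was apart from the next, in the order DMSO, combination, AU-15330, cisplatin, so that the cisplatin libraries were the highest and the combination lay closest to DMSO.

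Uba7 was 2.97-fold higher with cisplatin than with DMSO (log2 1.57 ± 0.09) and 1.75-fold higher with AU-15330 (log2 0.81 ± 0.09). The combination was 2.20-fold below cisplatin alone (log2 -1.14 ± 0.09) and 1.30-fold below AU-15330 alone (log2 -0.38 ± 0.09). By medians 1.24% of the tested genes had this order, and with no overlap between neighbours it was held by 2 genes (0.0155%), Uba7 and Irf7.

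Ube2l6, the E2 enzyme that receives ISG15 from UBA7, was also highest with cisplatin alone. Its lowest, median and highest library were at 3.94, 6.30 and 7.79 CPM with DMSO and at 29.4, 40.6 and 43.9 CPM with cisplatin. They were at 16.5, 20.5 and 23.2 CPM with AU-15330 and at 19.2, 21.6 and 24.7 CPM with the combination. The AU-15330 and combination libraries overlapped, and both groups lay between DMSO and cisplatin with no overlap with either.

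Ube2l6 was 6.42-fold higher with cisplatin than with DMSO (log2 2.68 ± 0.14) and 3.38-fold higher with AU-15330 (log2 1.76 ± 0.14). With the combination it was 1.77-fold below cisplatin alone (log2 -0.82 ± 0.12), and against AU-15330 alone the difference was 0.11 ± 0.12 on the log2 scale. Its order of medians, DMSO, AU-15330, combination, cisplatin, was shared by 3.03% of the tested genes.

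Usp18, the protease that reverses the modification, was close to the detection floor in control cells. The DMSO libraries held 3 to 22 counts of Usp18, and their lowest, median and highest level was 0.145, 0.596 and 1.18 CPM. The treated libraries stood at 53.0, 71.9 and 80.2 CPM with cisplatin, 40.8, 49.6 and 66.7 CPM with AU-15330 and 34.7, 38.1 and 41.4 CPM with the combination. All treated libraries were far above all DMSO libraries, and the combination was below cisplatin in every library, but AU-15330 overlapped both cisplatin and the combination.

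Usp18 was 108-fold higher with cisplatin than with DMSO (log2 6.75 ± 0.22) and 81.5-fold higher with AU-15330 (log2 6.35 ± 0.22). The combination was 1.79-fold below cisplatin alone (log2 -0.84 ± 0.15) and 1.35-fold below AU-15330 alone (log2 -0.43 ± 0.15). Among all member fold changes, leaving out 1 library moved this one most: without DMSO replicate 5, the Usp18 log2 value for AU-15330 against DMSO was 6.61.

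**Figure D1:**
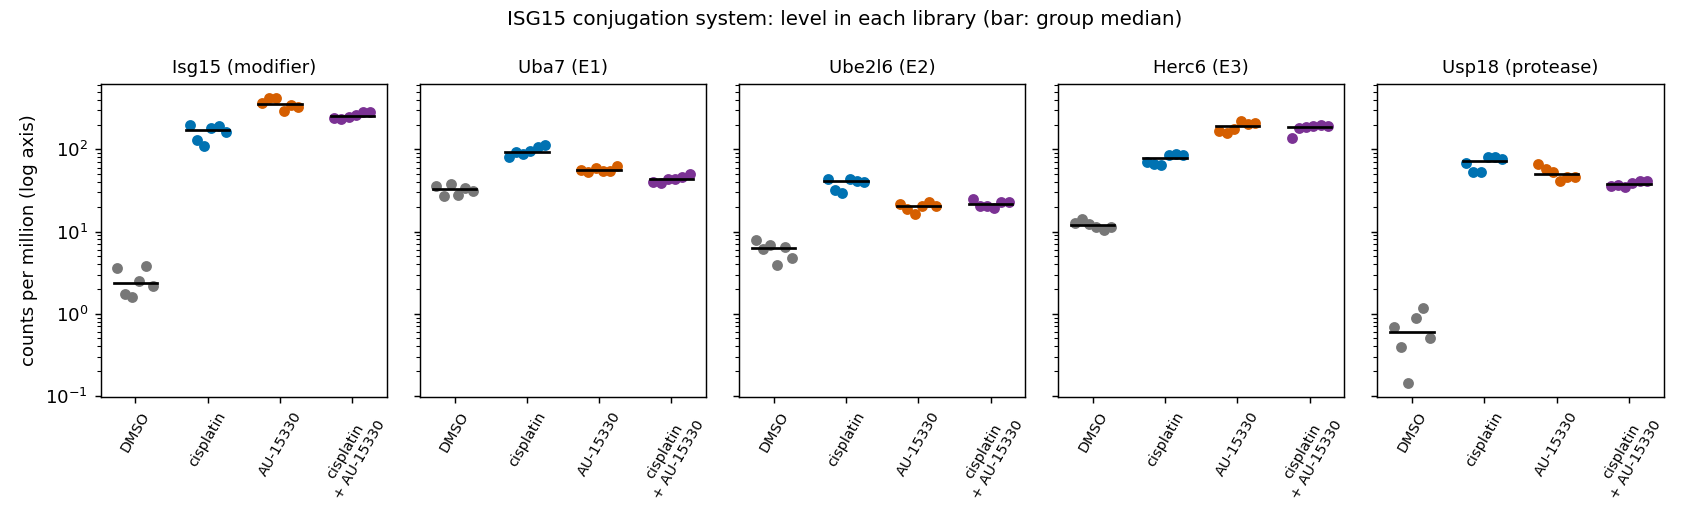
Level of each of the 5 genes in every library, in CPM on a log axis, by treatment (6 libraries per group, points in order of replicate number, bar at the group median). The DMSO libraries lie lowest for all 5 genes, Isg15 and Herc6 reach their highest values with AU-15330 alone, and Uba7, Ube2l6 and Usp18 reach theirs with cisplatin alone.

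Counted over the members, all 5 passed the threshold of the edgeR fit as higher with cisplatin than with DMSO, where 26.0% of all tested genes were called higher and 25.7% lower. All 5 were also called higher with AU-15330 than with DMSO, against 36.2% of genes called higher and 37.2% lower. With the combination against cisplatin, 2 (Isg15 and Herc6) were called higher and 3 (Uba7, Ube2l6 and Usp18) lower, against 35.4% and 32.7% of genes. With the combination against AU-15330, 0 were called higher and 3 (Isg15, Uba7 and Usp18) lower, against 22.2% and 19.5%. Since these contrasts chose the members, nothing is read from the counts. The comparisons of each single agent with DMSO share the DMSO libraries, and both comparisons of the combination share the combination libraries.

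The groups did not overlap for 5 of 5 members in cisplatin against DMSO (24% of all tested genes), in AU-15330 against DMSO (49.9%), in the combination against cisplatin (50.2%) and in the combination against DMSO (49.5%). In the combination against AU-15330, 2 of 5 members (Isg15 and Uba7) did not overlap, where 29.6% of genes did not. Between the single agents 4 of 5 did not overlap (57.4% of genes): Isg15 and Herc6 were higher with AU-15330, and Uba7 and Ube2l6 were higher with cisplatin.

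**Figure D2:**
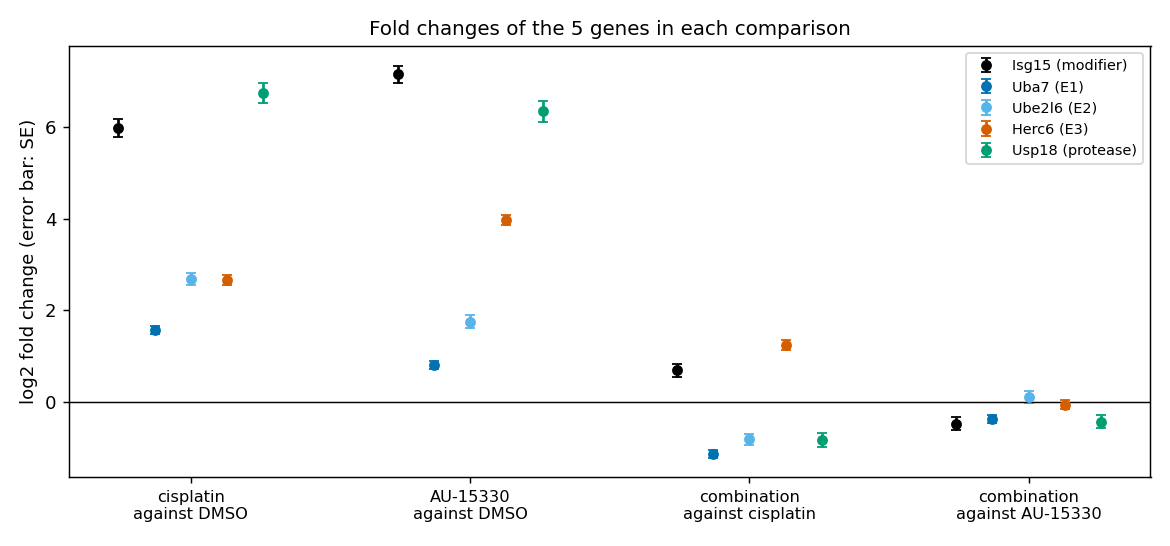
Fold changes of the 5 genes on the log2 scale (points, with SE as error bars) in 4 comparisons of 6 libraries against 6. Against DMSO all points are above 0, from 0.81 (Uba7 with AU-15330) to 7.16 (Isg15 with AU-15330), and in the combination against cisplatin Isg15 and Herc6 are above 0 while Uba7, Ube2l6 and Usp18 are below it.

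The combination was below the sum of the single-agent changes for every member. This difference, the interaction of cisplatin and AU-15330 on the log2 scale, was -6.47 ± 0.23 for Isg15, -7.19 ± 0.27 for Usp18, -2.73 ± 0.15 for Herc6, -2.58 ± 0.18 for Ube2l6 and -1.95 ± 0.13 for Uba7. All 5 were called lower, against 15.8% of genes called lower and 17.9% called higher, and nothing is read from this count, since the members were chosen on the same values. For Uba7, Ube2l6 and Usp18, AU-15330 went with a higher level without cisplatin and with a lower level in its presence, in libraries that did not overlap in either case.

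The balance of modifier to enzymes differed between the agents. The ratio of Isg15 to Uba7 counts had medians of 0.080 with DMSO, 1.60 with cisplatin, 6.46 with AU-15330 and 5.97 with the combination. That of Isg15 to Ube2l6 was 0.465, 4.12, 16.4 and 12.4 in the same order of groups. In both ratios, all libraries with AU-15330, alone or combined, were above all cisplatin libraries.

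Against the ligase the balance changed less between the treated groups. The ratio of Isg15 to Herc6 had medians of 0.206 with DMSO, 2.07 with cisplatin, 1.96 with AU-15330 and 1.41 with the combination, and the 3 treated groups overlapped. The ratio of Herc6 to Ube2l6, ligase to conjugating enzyme, was 2.03 with DMSO and 2.08 with cisplatin, and 9.52 with AU-15330 and 8.85 with the combination. Isg15 to Usp18, modifier to protease, stood at 4.39, 2.32, 7.29 and 6.85 with DMSO, cisplatin, AU-15330 and the combination. The DMSO ratio of this pair ranged from 2.80 to 11 at the low counts of Usp18 there.

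Levels between genes were compared per kb of merged exons. Merged exons join all annotated transcripts of a gene and can be longer than the transcript expressed here. The places of the genes below therefore depend on this choice of length. In DMSO the median was 4.86 CPM per kb for Uba7, 3.16 for Ube2l6, 3.10 for Isg15, 1.27 for Herc6 and 0.214 for Usp18. In cisplatin it was 226 CPM per kb for Isg15, 25.8 for Usp18, 20.4 for Ube2l6, 14 for Uba7 and 8.37 for Herc6. In AU-15330 it was 473 for Isg15, 20.7 for Herc6, 17.8 for Usp18, 10.3 for Ube2l6 and 8.26 for Uba7, so that Herc6 moved from the lowest place among the members with cisplatin to the highest among the enzymes. The combination had the same places for Isg15 (339), Herc6 (20.2), Usp18 (13.7), Ube2l6 (10.8) and Uba7 (6.45 CPM per kb).

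**Figure D3:**
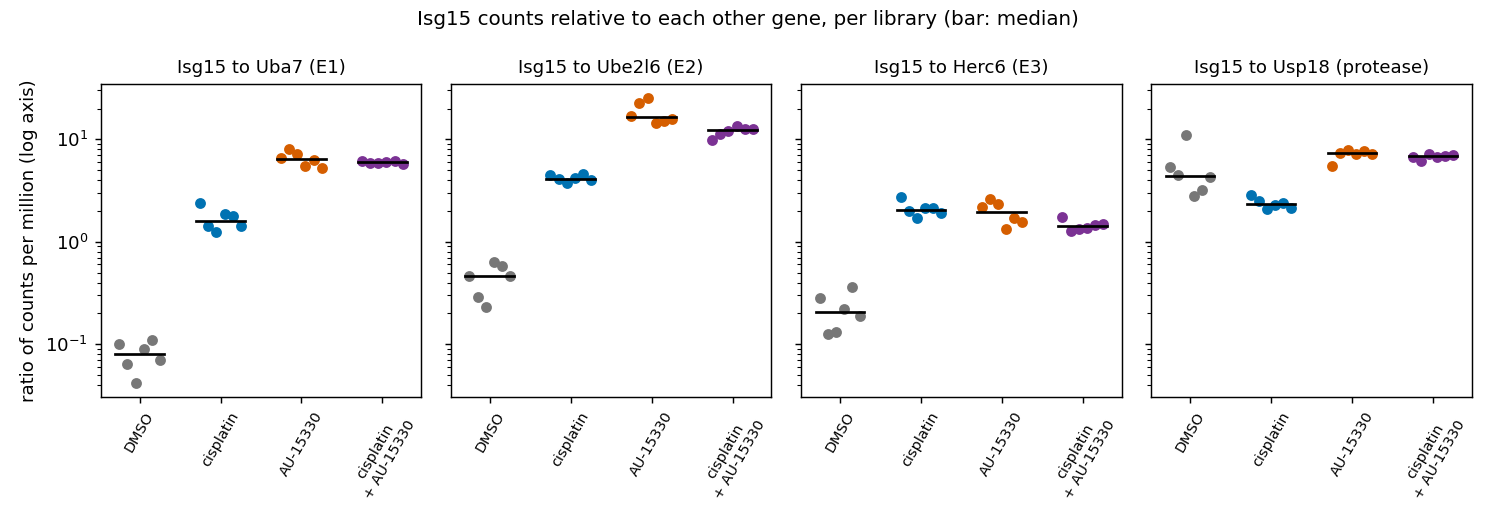
Ratio of Isg15 to each other gene in CPM, per library and treatment (log axis, 6 libraries per group, bar at the median). Relative to Uba7 and Ube2l6 the libraries with AU-15330 lie above those with cisplatin alone, with median ratios to Uba7 of 6.46 and 5.97 against 1.60, whereas the treated groups overlap in the ratio to Herc6.

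Within groups, the members varied by different amounts. The coefficient of variation in DMSO was 58.5% for Usp18, 36.3% for Isg15, 23.8% for Ube2l6, 13.6% for Uba7 and 10.5% for Herc6. In the combination it was at most 11.7%, for Herc6. Among cisplatin libraries, replicates 2 and 3 had 0 of 5 members above the group mean of log2 CPM, and replicates 4, 5 and 6 had 5 of 5. These replicates also differed in depth, with 21805569 and 22702821 counts against 24734857 to 25260009, and replicate 1, with 3 of 5 members above the mean, had 21922028. The part of depth in these deviations was not tested.

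The deviations from the group means over the 24 libraries had a Pearson r of 0.80 between Isg15 and Usp18. For the other 9 pairs r ran from -0.15 (Herc6 and Usp18) to 0.40 (Uba7 and Ube2l6). Pooling over the groups can hide relations that differ between them. Herc6 and Usp18 were both below their group means in cisplatin replicates 2 and 3, and both above in replicates 4, 5 and 6. In every AU-15330 library they deviated in opposite directions, as in replicate 1 (Herc6 -0.19, Usp18 0.39) and replicate 4 (Herc6 0.22, Usp18 -0.32). With the treatment differences left in, r ranged from 0.45 (Uba7 and Herc6) to 0.97 (Isg15 and Usp18). These values are descriptive, since members of a library share its culture, depth and scaling.

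**Figure D4:**
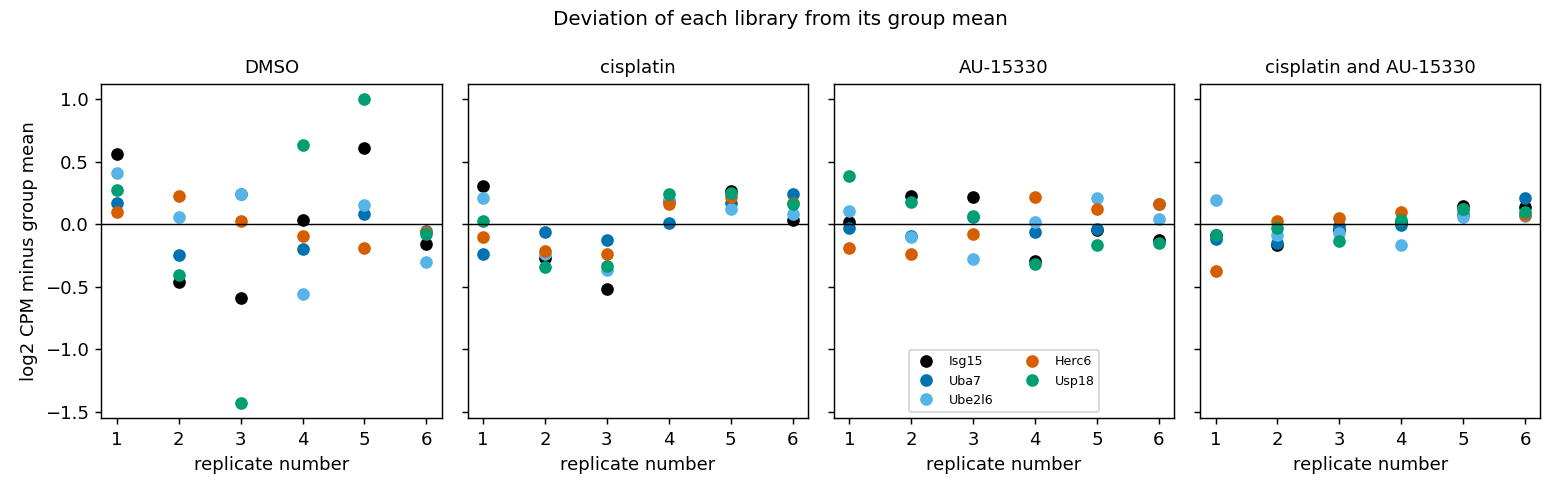
Deviation of each library from its group mean in log2 CPM (vertical axis) by replicate number (horizontal axis), for the 5 genes in each treatment. The DMSO libraries spread most for Usp18 and Isg15, and the points of cisplatin replicates 2 and 3 lie below 0 for all 5 genes while those of replicates 4, 5 and 6 lie above it.

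The genes whose levels over the 24 libraries were most like the mean of the standardised members were Irf7 (r = 0.997), Lgals3bp (0.993), Oasl2 (0.990), Mx2 (0.986), Irgm1 (0.986), Rtp4 (0.986), Trim12c (0.984) and Bst2 (0.984). Irf7 had medians of 8.01 CPM with DMSO, 229 CPM with cisplatin, 169 CPM with AU-15330 and 124 CPM with the combination. For single members the closest were Xaf1 (0.995) and Igtp (0.993) to Isg15, Trim30d (0.990) and Mndal (0.990) to Herc6, and Rtp4 (0.992) and Oas1a (0.990) to Usp18. Ube2l6 was closest to Daxx (0.966) and Bst2 (0.960), and Uba7 had the lowest closest values, with Cnp (0.920) and Ifi27l2a (0.919). The r over all libraries includes the differences between groups, and within groups r with the mean of the members was 0.758 for Irf7 and 0.365 for Trim12c. Within groups r with Ube2l6 was 0.472 for Daxx and 0.076 for Bst2.

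Of these 16 genes, 13 had a RefSeq window and 7 of those windows held GAAANNGAAA, where 3.99% of all gene symbols did. Like the members, they were taken from these libraries, and the count is a description.

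Among other genes of the pathway, Stat2 and Trim25 were called in both comparisons with DMSO and in the interaction. Stat2, the partner through which USP18 acts on the receptor, rose with cisplatin from a median of 41.5 to 240 CPM (log2 2.57 ± 0.13, adjusted p = 1.6e-14, edgeR) and with AU-15330 to 182 CPM (log2 2.08 ± 0.13, adjusted p = 1.1e-13). Its level with the combination was below that with cisplatin (log2 -0.61 ± 0.12, adjusted p = 9.9e-05), and its interaction was -2.69 ± 0.18 (adjusted p = 1.0e-11). Trim25, a second ligase reported to transfer ISG15, rose by 1.49 ± 0.10 with cisplatin and by 1.09 ± 0.10 with AU-15330, and its interaction was -1.62 ± 0.14 (adjusted p = 1.8e-09). Neither passed the threshold between the combination and AU-15330 alone, with log2 differences of -0.12 ± 0.12 for Stat2 (adjusted p = 0.45) and -0.13 ± 0.10 for Trim25 (adjusted p = 0.31).

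Ifnar2 and Itgb2 encode receptor chains. Ifnar2, the receptor chain bound by USP18, fell with AU-15330 (log2 -0.62 ± 0.08, adjusted p = 3.3e-07) and with the combination against cisplatin (-0.54 ± 0.08, adjusted p = 3.1e-06), from medians of 65.3 and 60.4 CPM, and did not pass with cisplatin against DMSO (-0.16 ± 0.08, adjusted p = 0.13). Itgb2, a chain of the integrin that binds free ISG15, rose with cisplatin (1.19 ± 0.25, adjusted p = 0.00030) and fell with AU-15330 (-4.39 ± 0.37, adjusted p = 4.4e-11), from a median of 5.48 CPM with DMSO to 0.289 CPM. Its partner chain Itgal reached at most 10 counts and was not tested.

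Among other proteases reported to act on ISG15, the differences were at most 0.73 on the log2 scale. Usp14 rose with AU-15330 (log2 0.73 ± 0.06, adjusted p = 2.1e-11) and with the combination against cisplatin (0.60 ± 0.06, adjusted p = 1.2e-09), from about 102 to 167 CPM in median with AU-15330. Usp5 rose in the same comparisons, by 0.43 ± 0.06 and 0.52 ± 0.06. With cisplatin against DMSO, Usp14 (0.17 ± 0.06), Usp16 (0.14 ± 0.06) and Usp5 (-0.16 ± 0.06) passed the threshold by small margins, and each of these calls was lost under at least 1 alternative. Usp21 fell with cisplatin (-0.39 ± 0.08, adjusted p = 0.00039) and with AU-15330 (-0.22 ± 0.08, adjusted p = 0.021), the latter lost without AU-15330 replicate 3 (adjusted p = 0.057) or DMSO replicate 5 (adjusted p = 0.063). In the combination against AU-15330, Usp21 differed by -0.18 ± 0.08 (adjusted p = 0.083) and passed with the replicate number as a block (-0.19, adjusted p = 0.028).

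Skp2, the substrate-binding subunit of a ubiquitin ligase that acts on USP18, rose in both comparisons that add cisplatin. The increase was 0.78 ± 0.10 on the log2 scale without AU-15330 (adjusted p = 3.0e-07) and 0.94 ± 0.10 with it (adjusted p = 3.5e-08). Arih1, an ariadne-family ligase reported to help conjugate ISG15, rose in the combination against cisplatin (0.54 ± 0.10) and against AU-15330 (0.47 ± 0.10), and its interaction of 0.40 ± 0.14 (adjusted p = 0.023) was lost without DMSO replicate 2 (adjusted p = 0.055). Sqstm1, the autophagy receptor p62, fell with cisplatin (-0.76 ± 0.16, adjusted p = 0.00035), rose in the combination against cisplatin (1.15 ± 0.16) and had an interaction of 1.11 ± 0.23 (adjusted p = 0.00057). Hdac6, which binds ISG15 conjugates, rose with AU-15330 by 0.22 ± 0.07 (adjusted p = 0.0039).

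Of the 12 tested genes among 13 in this pathway list, 6 were called higher and 3 lower with cisplatin against DMSO (26.0% and 25.7% of all tested genes), and 5 higher and 3 lower with AU-15330 against DMSO (36.2% and 37.2%). In the combination 4 were higher and 5 lower than with cisplatin (35.4% and 32.7% of all), and 2 higher and 0 lower than with AU-15330 (22.2% and 19.5%). In the interaction 2 were called higher and 2 lower, close to the shares of all tested genes (17.9% and 15.8%). The median log2 fold changes of the list were 0.10, 0.08, -0.03 and -0.01 in these comparisons, against -0.004, -0.003, 0.04 and 0.01 for all tested genes.

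**Figure D5:**
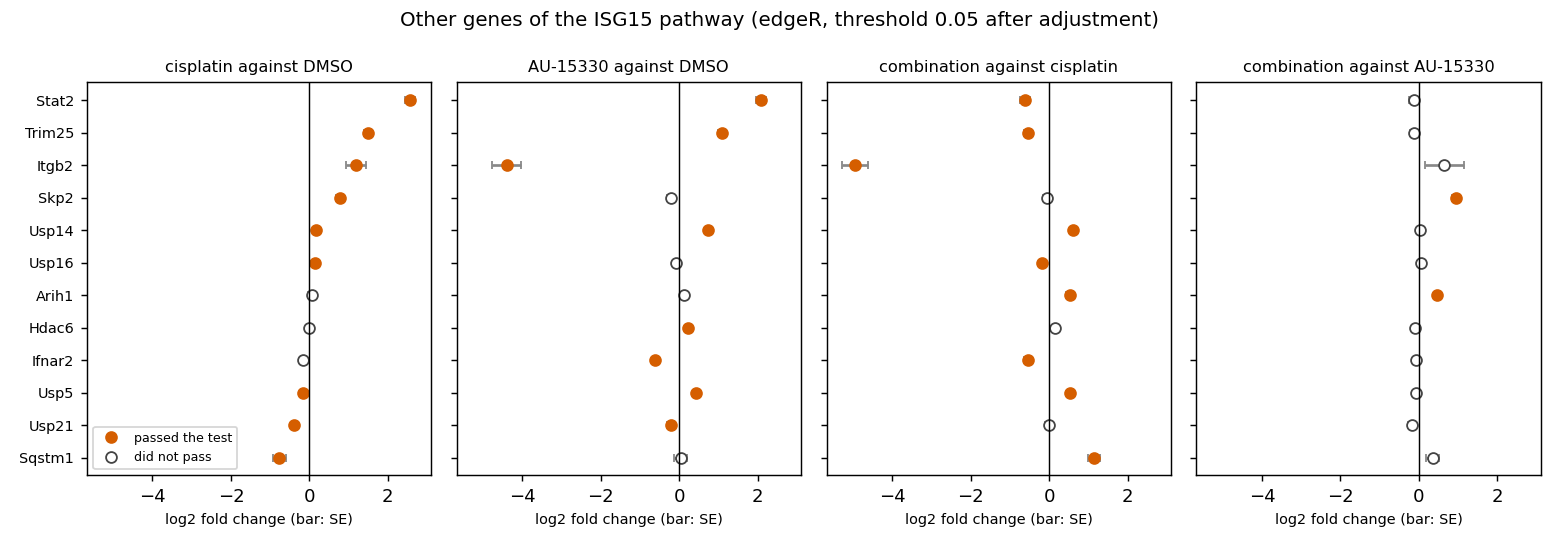
Log2 fold changes (points, with SE as bars) of the 12 tested genes of the ISG15 pathway that are not members, in 4 comparisons, with filled points for adjusted p under 0.05 in the edgeR fit. Stat2 and Trim25 are to the right of 0 against DMSO in both panels, and Itgb2 lies at -4.39 with AU-15330 and at -4.94 in the combination against cisplatin.

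The ubiquitin system has enzymes of the same classes as the members. Uba1, the E1 for ubiquitin, differed by 0.08 ± 0.05 on the log2 scale with cisplatin and by 0.40 ± 0.05 with AU-15330 (adjusted p = 3.3e-08), and Ube2l3, the E2 most like UBE2L6, differed by -0.13 ± 0.07 and -0.18 ± 0.07. These 2 genes were picked from the list of counterparts after their values were seen. Among other ligases of the HERC family, Herc4 fell with AU-15330 (-0.67 ± 0.08) and in the combination against cisplatin (-0.72 ± 0.08). Herc2 rose with AU-15330 against DMSO (0.64 ± 0.14) and fell in the combination against AU-15330 (-0.46 ± 0.13). In the combination against AU-15330, Herc3 (-0.69 ± 0.15), Herc1 (-0.44 ± 0.15) and Herc4 (-0.29 ± 0.08) were also called lower.

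Of 30 tested genes of other ubiquitin-like systems among 31, 4 were called higher and 9 lower with cisplatin (26.0% and 25.7% of all tested genes), and 9 higher and 11 lower with AU-15330, shares near the 36.2% and 37.2% of all tested genes. Sae1, an E1 subunit for SUMO, rose by 0.47 ± 0.10 with cisplatin. Atg7, the E1 of autophagy, rose by 0.80 ± 0.05 with AU-15330. Fau, which encodes a ubiquitin-like protein fused to a ribosomal protein, fell by 0.61 on the log2 scale with cisplatin and by 0.58 with AU-15330. The combination had 10 higher and 4 lower against cisplatin (35.4% and 32.7% of all), led by Uba3 (0.86 ± 0.05), an E1 subunit for NEDD8, and 6 higher and 7 lower against AU-15330 (22.2% and 19.5%). In the interaction 5 of these genes were called higher and 1 lower (17.9% and 15.8% of all).

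Proteins reported to carry ISG15 include several that interferon also induces. Ifit1, an antiviral RNA-binding protein, rose from a median of 0.734 CPM to 219 CPM with cisplatin (log2 7.83 ± 0.29) and to 25.7 CPM with AU-15330 (4.76 ± 0.28), and stood at 45.1 CPM with the combination. Mx1, an antiviral GTPase, had medians of 3.07 CPM with DMSO, 17 CPM with cisplatin, 0.150 CPM with AU-15330 and 0.152 CPM with the combination, and it fell with AU-15330 (-4.84 ± 0.40, adjusted p = 3.3e-11) at levels near the floor. By medians, Ifit1 had its highest level with cisplatin, as Uba7, Ube2l6 and Usp18 did.

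Of the 21 reported targets, all tested, 10 were called higher and 3 lower with cisplatin (26.0% and 25.7% of all tested genes) and 10 higher and 9 lower with AU-15330 (36.2% and 37.2%). The combination had 9 higher and 7 lower against cisplatin (35.4% and 32.7% of all) and 5 higher and 6 lower against AU-15330 (22.2% and 19.5%). In the interaction 0 targets were called higher and 8 lower (17.9% and 15.8% of all). The list was chosen with earlier results of these data known, so these counts are a description. Pcna, the replication clamp, rose in both comparisons of the combination, by 0.78 ± 0.11 and 0.74 ± 0.11, and Cgas, the DNA sensor, by 0.80 ± 0.11 and 1.32 ± 0.11.

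Interferon transcripts themselves were at or near the floor in these cells. None of the 21 ligand genes passed the filter on low counts, 12 of them had 0 counts in every library, and Ifnb1 reached at most 6 counts. Ifne and Ifnz reached the most, at 16 and 15 counts. Both had their highest median with AU-15330, at 0.285 and 0.321 CPM, against 0.0309 and 0 CPM with DMSO. Their summed level was 0 to 0.313 CPM with DMSO, 0.181 to 0.454 CPM with cisplatin, 0.620 to 0.825 CPM with AU-15330 and 0.0929 to 0.527 CPM with the combination. The part of these transcripts in the levels of Isg15 and its enzymes was not tested, and secreted interferon was not measured.

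Markers of the epithelium and of other cell types moved with both agents beside the members. With cisplatin against DMSO, 5 of the 7 epithelial and mesothelial genes were called higher and 0 lower (26.0% and 25.7% of all tested genes), the largest increases being those of Upk3b (2.12 ± 0.31), Krt7 (1.89 ± 0.29) and Krt8 (0.70 ± 0.09). All 7 were called lower with AU-15330 against DMSO (37.2% of all) and 7 of 7 in the combination against cisplatin (32.7%), and 4 of 7 were called higher in the combination against AU-15330 (22.2%). Krt19, a keratin of simple epithelia, had medians of 1611 CPM with DMSO, 1328 CPM with cisplatin, 5.72 CPM with AU-15330 and 11.51 CPM with the combination, and Upk3b, a mesothelial marker, 58.1, 197, 0.427 and 1.01 CPM. Krt7 was at 1.28 CPM with DMSO, 4.65 CPM with cisplatin and at or under 0.0971 CPM in every AU-15330 library. The 8 leukocyte markers summed to 6.46 to 19 CPM with DMSO, 6.85 to 13.2 CPM with cisplatin, 16.8 to 53.1 CPM with AU-15330 and 23.96 to 42.3 CPM with the combination, nearly all of it from Cd68, which rose by 1.56 on the log2 scale with AU-15330 against DMSO, while the pan-leukocyte marker Ptprc reached at most 5 counts. Of 3 endothelial markers only Pecam1 was tested, and it rose with cisplatin (1.49 ± 0.16) and fell with AU-15330 (-2.95 ± 0.20), from a median of 3.63 CPM with DMSO to 10.1 and 0.431 CPM, while Cdh5 and Kdr reached at most 3 counts and 1 count. The part of these markers in the members' values was not tested.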

How the data were processed

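RNA was extracted with a column kit and libraries were made with a directional, poly(A)-selecting kit and sequenced single-end. The deposited table holds whole-number counts per gene symbol, made by the authors, not normalized, with 2 lane columns for each of 24 libraries. The submitters' processing notes name STAR 2.7.1a, DESeq2 1.36.0 and mm10. The counting tool, strand setting and annotation are not given in the sources used here.

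Lanes were summed per library. All 4 groups entered 1 edgeR 4.0.16 quasi-likelihood fit of group means (TMM, filterByExpr, 20 residual degrees of freedom, R 4.3.3), with Benjamini-Hochberg adjustment over 12941 genes and a threshold of 0.05. CPM in logs had a prior count of 2. Lanes of 1 library differed by a chi-square per degree of freedom of 1.36 to 1.46 and replicates by 2.26 to 116 (median 24.7), so no libraries were merged as duplicates. Deviations from group means of same-numbered libraries correlated at over 0.1 in all 6 pairs, from 0.10 to 0.48, between AU-15330 and the combination, which by that criterion are paired by the data, not by the labels, and not in the other 5 pairs of groups.

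The members and gene lists were chosen with earlier results of these data known. The text names all members, all genes of the pathway list, from each other list the called genes with the 3 largest increases and decreases per comparison (a selection of these is printed, and 1 is not reported here), and the 8 genes closest to the members' mean and 2 closest to each member by Pearson r. Alternatives were DESeq2's size factors, DESeq2 1.42.0, no low-count filter, the replicate number as a block, plain totals for levels, and leaving out each library. Sequence windows came from RefSeq (GRCm38.p6) and positions from GENCODE on GRCm38. Figures were drawn with matplotlib.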

Additional observations from a re-analysis of the deposited data

Results flagged for a closer look

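Herc6 in combination replicate 1 lay apart from the rest of its group: it had 139 CPM where the next library had 183 CPM and the highest 196 CPM, a gap of 0.777 of the group's range, above the 0.625 that marks an outlier among 6 libraries. Among the 20 groups of member values examined this was the 1 outlier, and chance gives about 1 in 20.

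The effect of AU-15330 had opposite signs without and with cisplatin, in every library, for 3 members. The differences between these effects were -1.95 for Uba7, -2.58 for Ube2l6 and -7.19 for Usp18 on the log2 scale. They are given as a description, without p-values. That all 3 passed the threshold of the edgeR interaction is no independent evidence of a difference, because the members were chosen on these comparisons.

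For 4 other pathway genes the effects differed in the edgeR interaction test over all genes. The difference was -1.62 for Trim25, -2.69 for Stat2, 0.40 for Arih1 and 1.11 for Sqstm1. These 2 higher and 2 lower calls among 12 tested genes are close to the shares of all tested genes called in the interaction, 17.9% higher and 15.8% lower.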

How the results depend on the processing

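The log2 fold changes of the members kept their signs in 25 of 25 values under each of DESeq2's size factors, DESeq2, no low-count filter and the replicate block, in 360 of 360 values with single libraries left out, and in 25 of 25 without replicate 1 of all groups, a setting added after seeing the data. The largest moves were 0.032, 0.038, 0.039 and 0.023 under the first 4 settings, 0.097 without replicate 1 and 0.257 without DMSO replicate 5 (Usp18, AU-15330 against DMSO, 6.61 in place of 6.35). Counts of called genes stayed within 1.5 times under all these alternatives. Among the named pathway and list genes, the calls of Usp5 in cisplatin against DMSO were lost with DESeq2's size factors (adjusted p = 0.058) and DESeq2 (0.051), and those of Usp14 (0.094), Usp16 (0.19) and, in the combination against AU-15330, Ube2m (0.080) without the filter. The cause was not tested. With single libraries left out, 27 calls were lost and 6 gained, and 1575 were kept on their side of the threshold, and without replicate 1 of all groups 2 were lost (Usp14 and Usp16, cisplatin against DMSO) and 1 gained (Skp2, AU-15330 against DMSO).

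Over all groups, 23 of 36 same-numbered pairs of libraries had r over 0.1 and 10 of 24 libraries were closest to their own number. In the combination against AU-15330, the 1 of 6 pairs of groups where every pair was over 0.1, the block changed the call of Usp21 (adjusted p = 0.028) and of no other named gene. In the other comparisons, where the libraries share only a number, the replicate block moved Isg15 in AU-15330 against DMSO from 7.16 to 7.18 and gained calls for Skp2 (AU-15330 against DMSO, adjusted p = 0.017) and Hdac6 (combination against cisplatin, 0.047).

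Depth limits Usp18 in DMSO, where 3 to 22 counts lie behind each value, and the interferon transcripts.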
